A study of Homo sapiens with 12 samples.

Results

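The SLC39A genes, also called ZIP genes, encode the zinc importers of human cells. The 10 members described here were found by matching the Ensembl identifiers of the count table, without their version numbers, to the symbols SLC39A1, SLC39A3, SLC39A6, SLC39A7, SLC39A8, SLC39A9, SLC39A10, SLC39A11, SLC39A13 and SLC39A14. They are 10 of the 14 human genes of the family and 10 of the 60710 genes in the table, and all 10 had enough reads to be tested. Of the other 4, SLC39A4 was tested as well, while SLC39A2 (0 or 1 count in every library), SLC39A5 (0 to 11 counts) and SLC39A12 (0 counts in all 12 libraries) did not pass the filter on low counts.

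RNA was measured in SH-SY5Y, an established human neuroblastoma line, in 4 groups of 3 libraries. All wells held the same line in medium with serum and received 10 µL of DMSO, either alone (the control group) or with HPPE, zinc protoporphyrin (ZnPP) or tin protoporphyrin (SnPP) at 5 µM for 5 h. ZnPP and SnPP are the heme ring with zinc or tin in place of iron, so they differ from each other in the metal; the labels do not spell out HPPE, and nothing is said here of its structure. Nothing in the labels says whether the 3 libraries of a group came from separate cultures, so p-values measure only the spread between these libraries, which may be technical.

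ZIP proteins sit in the outer membrane or in the membranes of organelles and move zinc into the cytosol. The SLC30A (ZnT) exporters move it the other way, and metallothioneins bind it. Zinc in the cytosol activates the transcription factor MTF1, which raises metallothioneins and SLC30A1; in mouse cells MTF1 has also been described as holding the gene for ZIP10 down when zinc is plentiful. SLC39A6 and SLC39A10 are sister genes whose proteins can pair, and both have been studied in neural cells because of their kinship with the prion protein.

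Library totals ran from 1337028 to 9145399 counts, and 3 counts, the floor below which a gene is not told from absence, correspond to 0.337 to 2.26 CPM (counts scaled to a library of 1e6 reads). This floor covers counting error only. Of 12 noradrenergic neuroblastoma markers, the type on the label, 11 were above 3 counts in every library, with TH the exception. Their sum, the highest of the marker lists, ran from 5049 to 5841 CPM. Of the marker lists for other cell types, mesenchymal genes summed to 516 to 762 CPM, and 5 of 6 of them were also above 3 counts in every library. Detection alone therefore hardly separates these 2 lists. Epithelial genes summed to 9.57 to 12.8 CPM, leukocyte genes to at most 0.317 CPM and endothelial genes to at most 0.125 CPM. In bulk RNA, fewer cells with a transcript and less of it per cell cannot be told apart.

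Levels of different genes were compared per kilobase of exon (GENCODE 29 exon unions, GRCh38). In DMSO, SLC39A6 was the most abundant member at 70.7 ± 5.87 CPM per kb (SD, n = 3), followed by SLC39A7 at 32.8 ± 2.7 and SLC39A9 at 28.9 ± 0.627. SLC39A14 stood at 17.5 ± 1.5 CPM per kb and SLC39A10 at 11.5 ± 2.14. Next came SLC39A13 at 6.50 ± 0.900 and SLC39A3 at 5.86 ± 0.882 CPM per kb, whose libraries overlapped, so their order is not resolved. SLC39A11 at 3.94 ± 0.845, SLC39A8 at 2.92 ± 0.228 and SLC39A1 at 0.656 ± 0.0886 CPM per kb closed the order, and all neighbours other than SLC39A13 and SLC39A3 were apart in all 3 libraries. SLC39A6 was first and SLC39A1 last in all 4 groups.

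The position of SLC39A10 in that order changed with HPPE. It held rank 5 in DMSO, ZnPP and SnPP, apart from its neighbours on both sides. With HPPE its level was 5.92 ± 0.492 CPM per kb (SD, n = 3), at rank 6, below SLC39A13 at 8.07 ± 1.09 and overlapping SLC39A3 at 5.85 ± 0.491. In ZnPP, SLC39A7 at 25.8 ± 4.40 CPM per kb overlapped SLC39A9 at 24.6 ± 2.13, neighbours that were apart in the other 3 groups. The low level of SLC39A1 is uncertain: 60.8% of its exon length is shared, on the same strand, with a protein-coding gene model (AL358472.7) that has 0 counts in every library, and whether reads that fit both models went uncounted was not tested.

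**Figure D1:**
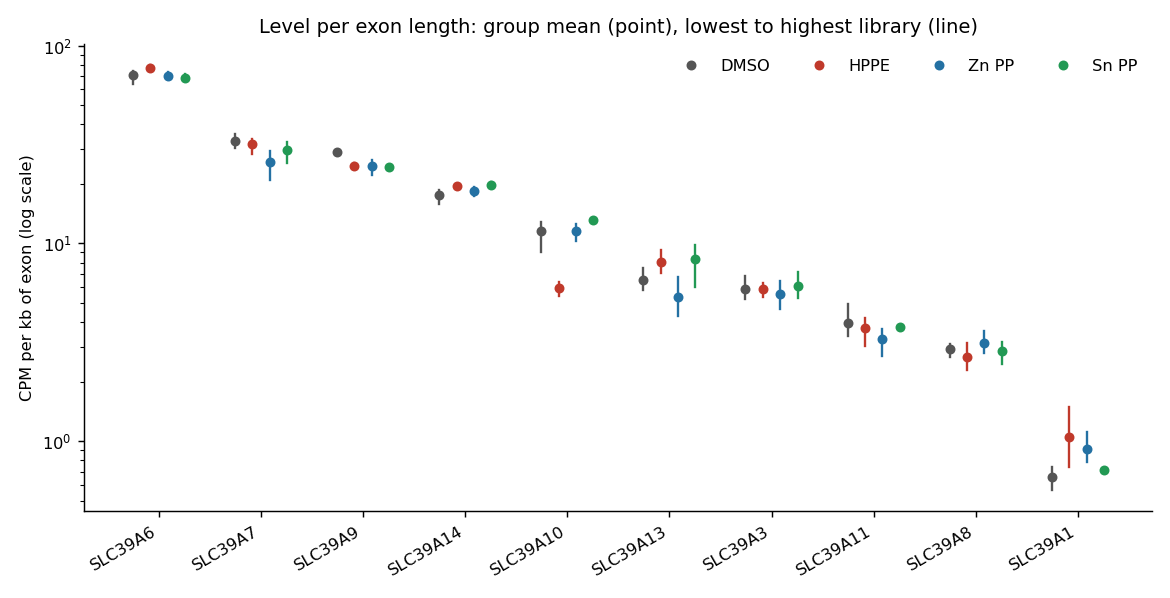
Level of each SLC39A gene in CPM per kilobase of exon (log axis), with group means as points and lines from the lowest to the highest of 3 libraries. SLC39A6 is highest in every group, and SLC39A10 drops from 11.5 in DMSO to 5.92 with HPPE while its ZnPP and SnPP values stay near or above DMSO.

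With HPPE, 1 of the 10 importers fell and none rose at an adjusted p under 0.05 (edgeR quasi-likelihood test, Benjamini-Hochberg adjustment over 16366 genes). That gene was SLC39A10. Of all genes tested in this comparison, 4.04% were called in either direction and 1.47% were called lower, so 1 of 10 is a statement about SLC39A10 and not about the family. The members' median log2 fold change was 0.02, the same as over all genes tested (0.02), with 5 members above 0 and 5 below. Libraries of 4 members did not overlap between HPPE and DMSO (SLC39A9 and SLC39A10 lower, SLC39A6 and SLC39A14 higher), against 21.4% of all genes tested. Summed over the 10 members, the level was 860.6 ± 33.3 CPM in DMSO and 831.1 ± 34.7 CPM with HPPE (SD, n = 3), a gap smaller than the spread of either group.

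Neither metal protoporphyrin had a called member. With ZnPP the median log2 fold change of the 10 was -0.05, beside -0.00 over all genes, and 2.25% of all genes tested were called. With SnPP it was 0.05, beside 0.01, and 2.28% of all genes were called. At an unadjusted p under 0.05, 2 members passed in each comparison (SLC39A7 and SLC39A9 with ZnPP, SLC39A9 and SLC39A13 with SnPP). Of all 16366 genes tested, 3051 passed at that threshold with ZnPP and 2410 with SnPP. DESeq2 called 0 members in either. Libraries of 3 members did not overlap between ZnPP and DMSO, beside 22% of all genes, and of 2 members between SnPP and DMSO, beside 17.9%. The 3 comparisons with DMSO share their control libraries.

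**Figure D2:**
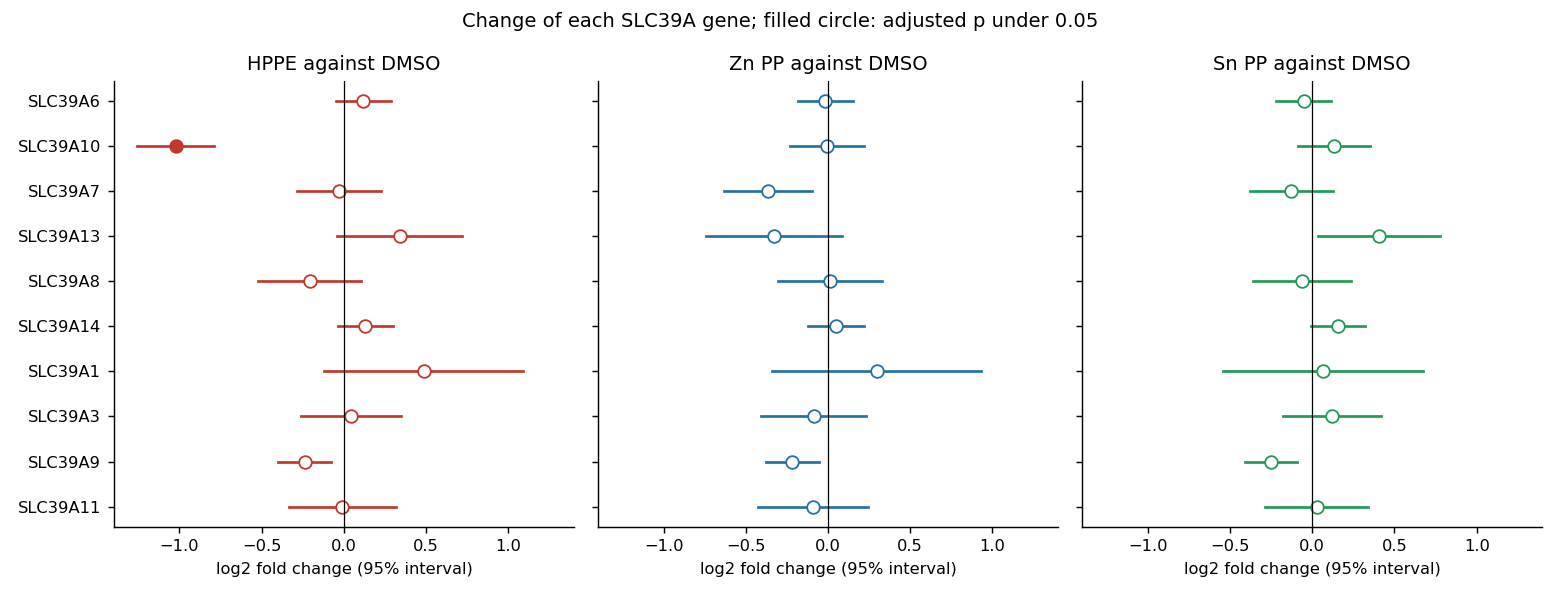
Log2 fold change of each SLC39A gene against DMSO with HPPE, ZnPP and SnPP (points) and its 95% interval (lines); a filled point has an adjusted p under 0.05. SLC39A10 with HPPE, at -1.02, is the 1 filled point of 30.

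The LIV-1 subfamily, named after the old name of SLC39A6, holds 6 of the 10 members. SLC39A10 (ENSG00000196950.14) lies on chromosome 2 at 195575977 to 195737702 on the plus strand in GRCh38, and no exon of it is shared with another annotated gene. It encodes ZIP10, an importer of the outer membrane. In the DMSO libraries SLC39A10 stood at 89.2, 87.1 and 62.5 CPM. With HPPE it stood at 37.3, 41.5 and 44.0 CPM. All 3 HPPE libraries lay below every DMSO library, the nearest of which, at 62.5 CPM, is one of the 2 shallowest libraries. The group means were 79.6 ± 14.8 and 40.9 ± 3.41 CPM (SD, n = 3), and the log2 fold change was -1.02 ± 0.11 (SE; 95% interval -1.26 to -0.79), 0.49-fold, with an adjusted p of 2.34e-05 in edgeR's quasi-likelihood test. Among the 7814 genes with a negative change, none had a smaller p. By size it held rank 17 among all 241 genes called lower, and rank 5 among the 221 of them that had at least 10 CPM in DMSO.

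The metal protoporphyrins left SLC39A10 near its DMSO level. The ZnPP libraries held 70.8, 86.2 and 83.7 CPM and the SnPP libraries 89.1, 91.6 and 90.2 CPM. Against DMSO the log2 fold change was -0.01 ± 0.11 with ZnPP (95% interval -0.23 to 0.22, adjusted p = 0.986) and 0.13 ± 0.10 with SnPP (-0.09 to 0.35, adjusted p = 0.614), both in edgeR's quasi-likelihood test. The change with HPPE lies outside both intervals.

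The direct tests between compounds at the same dose and time, 3 pairs with p-values adjusted over all genes tested within each, found SLC39A10 lower with HPPE than with either protoporphyrin. Of the 10 members 2 were called between HPPE and ZnPP, where 12.7% of all genes were called, and 1 between HPPE and SnPP, where 1.45% were. Libraries did not overlap for 3 members between HPPE and ZnPP (36.7% of all genes), for 3 between HPPE and SnPP (19.9%) and for 2 between ZnPP and SnPP (12.9%). Against ZnPP the log2 fold change was -1.02 ± 0.11 (95% interval -1.25 to -0.78, adjusted p = 4.94e-05), in a comparison in which 6.26% of all genes were called lower. Against SnPP it was -1.15 ± 0.11 (-1.38 to -0.93, adjusted p = 5.04e-06), where 0.709% of all genes were called lower; p-values of both are from edgeR's quasi-likelihood test with Benjamini-Hochberg adjustment. The ZnPP libraries all lay below the SnPP libraries, but the difference, -0.14 ± 0.10 (-0.36 to 0.08), did not pass the test (adjusted p = 0.55).

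The fall of SLC39A10 can be read without any scaling of library sizes, as a ratio of counts inside each library. Per 100 counts of SLC39A6, its sister gene, there were 32.6, 32.0 and 26.6 counts of SLC39A10 in DMSO and 13.6, 14.5 and 15 with HPPE. The ratio was 27.3, 32.0 and 33.7 in ZnPP and 36.3, 34.5 and 36.5 in SnPP. Per 100 counts of SLC39A14 the HPPE libraries held 27.5, 31.5 and 31.9 counts and the other 9 libraries 54.7 to 70.4. Both ratios put the 3 HPPE libraries below all 9 others. Over the 22 alternative settings run for each comparison, including leaving out each library, SLC39A10 was called lower with HPPE in 22 of 22 against DMSO, in 22 of 22 against ZnPP and in 22 of 22 against SnPP.

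**Figure D3:**
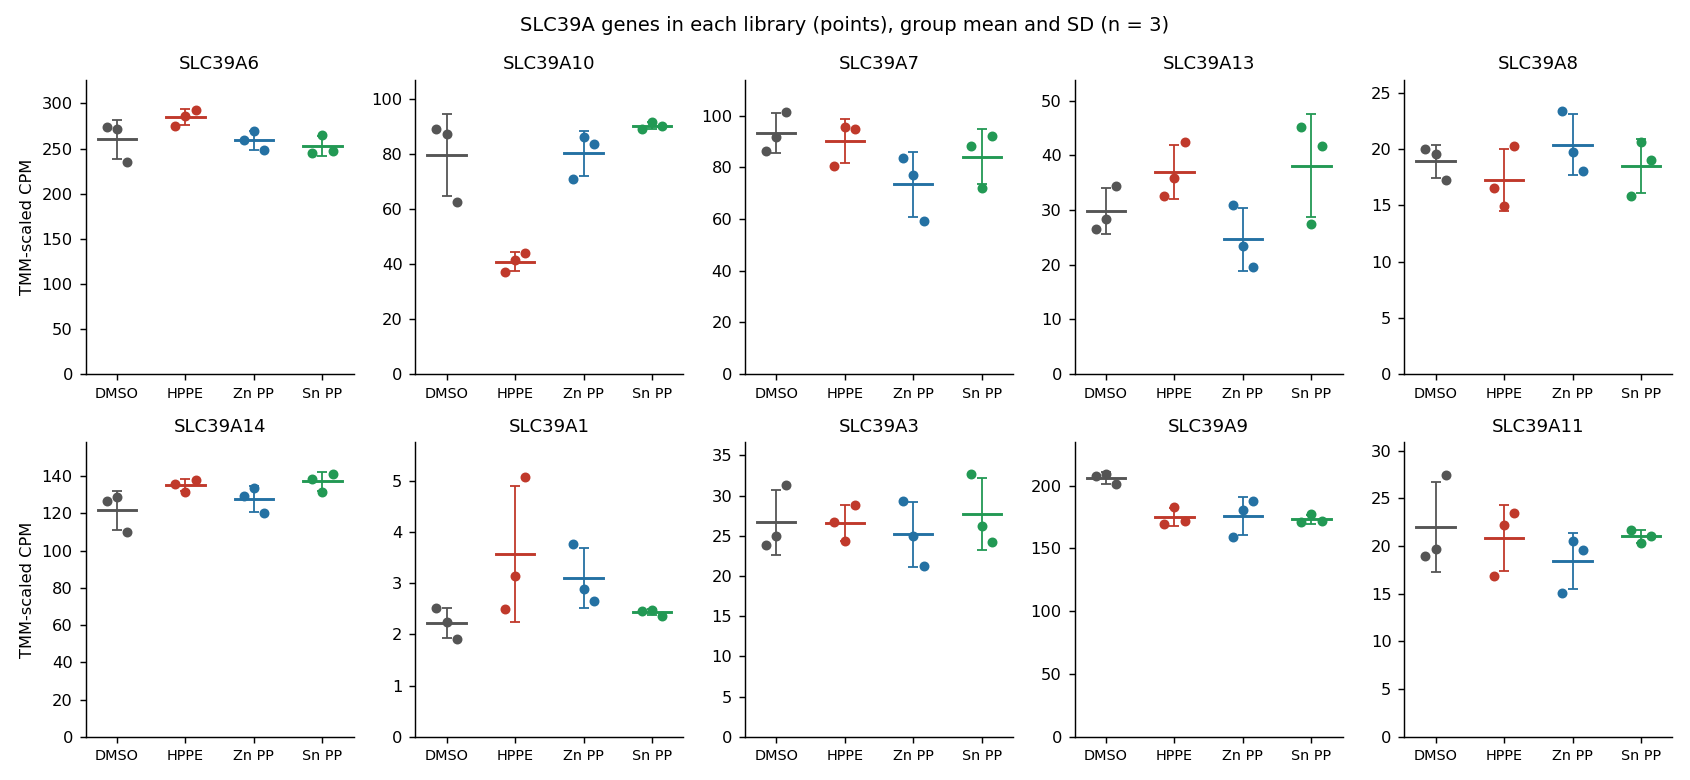
TMM-scaled CPM of the 10 SLC39A genes in each of 12 libraries (points), with group means (bars) and SD (whiskers, n = 3). In the SLC39A10 panel the HPPE libraries, at 37.3 to 44.0, lie below all others, and in the SLC39A9 panel the 3 DMSO libraries, at 201.0 to 209.3, lie above all others.

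SLC39A6, which encodes ZIP6, did not follow its sister gene. It stood at 273.7, 272.0 and 235.5 CPM in DMSO and at 275.0, 286.0 and 292.9 CPM with HPPE. The HPPE libraries lay above the DMSO libraries, by less than the test asks for (log2 fold change 0.12, 95% interval -0.05 to 0.29, adjusted p = 0.464 in edgeR's quasi-likelihood test). ZnPP libraries ran from 248.5 to 269.7 CPM and SnPP libraries from 245.1 to 265.3 CPM, within the range of DMSO. The difference in response between SLC39A6 and SLC39A10 was not tested as such; the ratios above are its description.

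SLC39A14 and SLC39A8 encode ZIP14 and ZIP8, importers that also carry iron, manganese and cadmium. SLC39A14 stood at 126.6, 128.8 and 109.8 CPM in DMSO, 135.7, 131.6 and 138.1 with HPPE, 129.5, 133.6 and 120.1 with ZnPP and 138.7, 131.7 and 141.2 with SnPP. HPPE and SnPP libraries lay above all DMSO libraries, yet the log2 fold changes of 0.13 ± 0.08 and 0.15 ± 0.08 had adjusted p of 0.407 and 0.370 in edgeR's quasi-likelihood test. SLC39A8 ranged from 14.9 to 23.3 CPM over the 12 libraries, with overlapping groups in every comparison; with HPPE its log2 fold change was -0.21 ± 0.15 (adjusted p = 0.492, the same test).

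SLC39A13 and SLC39A7 encode ZIP13, found in the Golgi and in vesicles and mutated in a form of Ehlers-Danlos syndrome, and ZIP7, which releases zinc from the endoplasmic reticulum after protein kinase CK2 phosphorylates it. SLC39A13 (ENSG00000165915.14; chromosome 11, 47407132 to 47416501, plus strand, GRCh38) was the 1 member besides SLC39A10 with a call between compounds. It held 32.6, 35.9 and 42.4 CPM with HPPE and 30.9, 23.4 and 19.6 CPM with ZnPP, with no overlap. The log2 fold change of HPPE against ZnPP was 0.67 ± 0.19 (95% interval 0.28 to 1.06, adjusted p = 0.0306 in edgeR's quasi-likelihood test), in a comparison in which 6.44% of all genes were called higher. The call was lost in 6 of 22 alternatives, among them without ZnPP replicate 3 (adjusted p = 0.221), without ZnPP replicate 2 (0.0696) and without HPPE replicate 2 (0.113) or 3 (0.103). With HPPE replicates 2 and 3 counted as 1 library, because their counts agreed almost within sampling noise (chi-square per degree of freedom 1.11, beside 1.49 to 17.3 for the other pairs of a group), the adjusted p was 0.0812.

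In DMSO, SLC39A13 held 26.6, 28.4 and 34.5 CPM, and with SnPP 45.1, 27.4 and 41.7 CPM. SnPP replicates 1 and 3 lay above every DMSO library, and the groups overlapped through SnPP replicate 2. Neither HPPE (0.34 ± 0.18, adjusted p = 0.344) nor SnPP (0.41 ± 0.18, adjusted p = 0.29) nor ZnPP (-0.33 ± 0.20, adjusted p = 0.379) passed edgeR's quasi-likelihood test against DMSO. Without SnPP replicate 2 the log2 fold change against DMSO was 0.60 (adjusted p = 0.0160, same test). Leaving out any other library gave no call of SLC39A13 in this comparison. Of the remaining alternatives, only a covariate for the main axis of deviation between libraries gave one (adjusted p = 0.0434, same test).

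ZnPP and SnPP, which differ in the metal, gave no called member between them with edgeR or DESeq2. With edgeR, 0.00611% of all genes (1 gene) were called. At an unadjusted p under 0.05, 1 member passed, beside 2176 of the 16366 genes tested. The largest difference among the members was that of SLC39A13, -0.74 ± 0.18 on the log2 scale (95% interval -1.12 to -0.35), lower with ZnPP, with an unadjusted p of 0.000828 and an adjusted p of 0.353 in edgeR's quasi-likelihood test. Without SnPP replicate 2 it was -0.94 with an adjusted p of 0.00429 in the same test. With no filter on low counts, over 38574 genes, it was -0.77, little changed in size, with an adjusted p of 3.5e-05. The covariate for the main axis of deviation between libraries also gave a call (adjusted p = 2.53e-07, same test). None of the remaining alternatives called it. For SLC39A9 the interval of the difference was -0.12 to 0.20, for SLC39A6 -0.13 to 0.20 and for SLC39A14 -0.27 to 0.06, so differences beyond these sizes lie outside the 95% intervals. For SLC39A7 it was -0.50 to 0.02.

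SLC39A7 was lowest with ZnPP. Its libraries held 86.3, 91.9 and 101.5 CPM in DMSO, 83.6, 77.2 and 59.4 with ZnPP, 80.4, 95.5 and 95 with HPPE and 88.3, 72.1 and 92.1 with SnPP. The ZnPP libraries did not overlap DMSO, which held for 10.4% of all genes in that direction. The log2 fold change was -0.37 ± 0.13 (95% interval -0.63 to -0.10, unadjusted p = 0.0101, adjusted p = 0.135 in edgeR's quasi-likelihood test). Between HPPE and ZnPP its log2 fold change was 0.34 ± 0.12 (adjusted p = 0.0758, same test). That difference was called with no filter (adjusted p = 0.0116), in a fit of only those 2 groups (0.0242), without SnPP replicate 2 (0.0295) and with a covariate for the main axis of deviation between libraries (7.54e-05). The difference between ZnPP and DMSO was called with no filter (adjusted p = 0.0147) and with that covariate (6.69e-06). Of its exon length, 8.6% lies opposite RXRB on the other strand, and whether counting used strand is not given in the sources used here.

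SLC39A13 and SLC39A7 varied within groups along a length trend of the libraries. In each library the deviation of genes from their mean was correlated with transcript length (Spearman's rho across genes, which are not independent replicates). Length here was that of the longest annotated transcript of each gene, not the exon union. The rho ran from -0.46 to 0.44 in DMSO, -0.47 to -0.10 in HPPE, 0.22 to 0.57 in ZnPP and -0.54 to 0.52 in SnPP, so HPPE and ZnPP libraries did not overlap in it. Both genes were at their lowest in the library with the highest rho in 4 of 4 groups. For SLC39A11 this held in 3 of 4 groups. SLC39A10 was at its lowest there in 1 of 4 groups and at its highest in 2 of 4 (DMSO and SnPP). In DMSO, SLC39A10 was at 89.2, 87.1 and 62.5 CPM in libraries with a rho of 0.44, 0.19 and -0.46, and in SnPP at 89.1, 91.6 and 90.2 CPM at -0.54, 0.52 and -0.18. SnPP replicate 2, without which SLC39A13 gained calls, is the SnPP library with a rho of 0.52. The other SnPP libraries, at -0.54 and -0.18, do not overlap the ZnPP libraries in rho. The part of this trend in the differences of SLC39A13, SLC39A7 and SLC39A10 was not tested by itself.

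**Figure D4:**
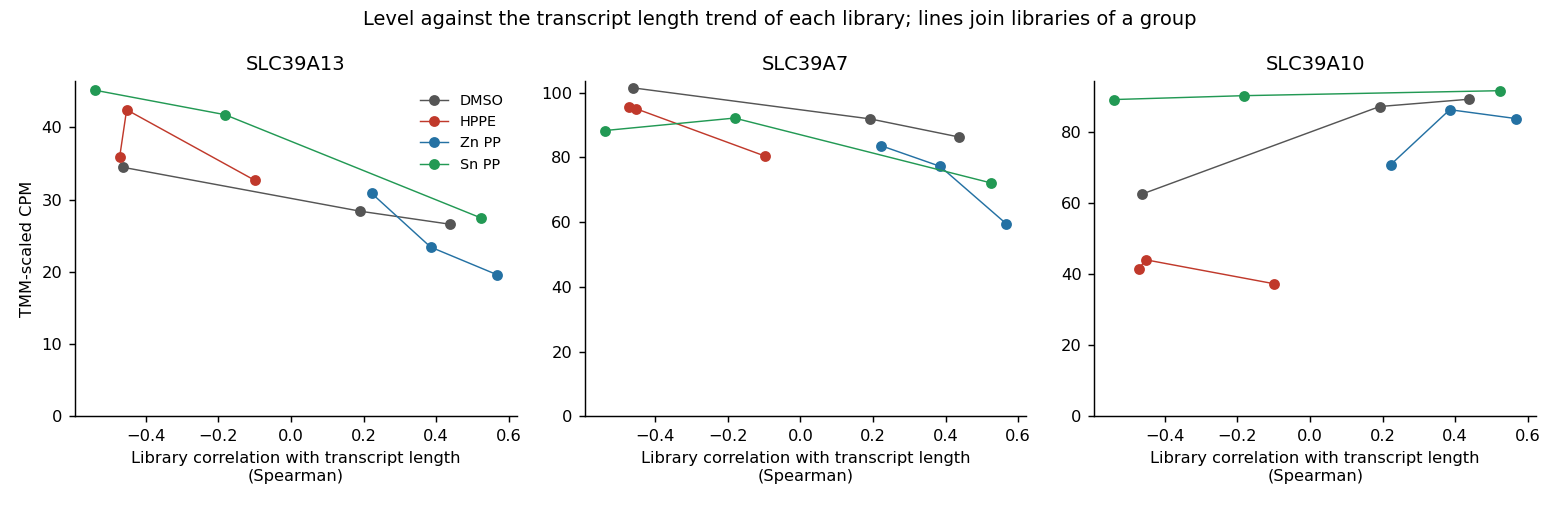
TMM-scaled CPM of SLC39A13, SLC39A7 and SLC39A10 in each library (vertical axis, from 0) against the library's Spearman correlation of gene deviations with transcript length (horizontal axis); lines join the 3 libraries of a group. SLC39A13 and SLC39A7 are lowest at the highest correlation in each group, and SLC39A10 in DMSO is lowest, at 62.5 CPM, at the lowest correlation of that group; the HPPE libraries hold 37.3 to 44.0 CPM of it, all at correlations below 0.

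Outside the LIV-1 subfamily, SLC39A9 was below its DMSO level in all 3 treated groups, without passing the test. SLC39A9 (ENSG00000029364.12; chromosome 14, 69398015 to 69462388, plus strand, GRCh38) encodes ZIP9, found in the Golgi and the outer membrane and also described as a membrane receptor for androgens. It held 208.0, 209.3 and 201.0 CPM in DMSO. With HPPE it held 169.8, 182.9 and 171.9 CPM, with ZnPP 158.9, 180.6 and 188.1, and with SnPP 171.1, 177.4 and 171.6. All 9 libraries of treated cells lay below all 3 DMSO libraries, which the 3 comparisons share. The log2 fold changes were -0.24 ± 0.08 with HPPE, -0.22 ± 0.08 with ZnPP and -0.25 ± 0.08 with SnPP, with adjusted p of 0.0916, 0.144 and 0.101 in edgeR's quasi-likelihood test, so none was called. Libraries lower without overlap were found for 9.44%, 10.4% and 7.6% of all genes in those comparisons. DESeq2 gave an adjusted p of 0.0496 for HPPE. Of the exon length of SLC39A9, 5.2% lies opposite ERH.

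SLC39A11 (ZIP11, of the gufA subfamily) and the ZIPII genes SLC39A1 and SLC39A3 (ZIP1 and ZIP3 of the outer membrane) showed no called difference in any of the 6 comparisons. SLC39A11 ran from 15.1 to 27.4 CPM and SLC39A3 from 21.3 to 32.7 CPM over the 12 libraries. Their log2 fold changes against DMSO lay between -0.09 and 0.12. SLC39A1 had 3 to 27 counts per library, with 1 library at the floor of 3, and its interval with HPPE, -0.12 to 1.09, shows how little that depth resolves.

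Tested over the 4 groups at once, 2 of the 10 members differed at an adjusted p under 0.05, beside 7.18% of all genes tested. SLC39A10 had an F of 43.9 and an adjusted p of 1.43e-05. SLC39A13 had an F of 6.77 and an adjusted p of 0.0486 in the same edgeR quasi-likelihood test, and lost the call in 13 of 21 alternatives.

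Zinc exporters and metallothioneins were set beside SLC39A10 because they are the genes best known to respond to zinc. SLC30A1, the exporter of the outer membrane, held 77.7, 67.1 and 55.5 CPM in DMSO and 132.7, 119.3 and 115.3 CPM with HPPE, with no overlap. Its log2 fold change was 0.84 ± 0.12 (adjusted p = 4.63e-04, edgeR's quasi-likelihood test), opposite in sign to that of SLC39A10. With ZnPP it held 88.8, 68.4 and 66.6 CPM and with SnPP 59.2, 73.9 and 59.4 CPM, with log2 fold changes of 0.06 and -0.10 that were not called. Of 8 exporters tested, 1 rose and 1 fell with HPPE (SLC30A9, -0.32 ± 0.08, adjusted p = 0.0267, lost in 7 of 22 alternatives). Of all genes tested, 4.04% were called in either direction there and 1.47% were called lower. The median log2 fold change of the 8 exporters was -0.02. Between 1 and 4 exporters were called over the alternatives, for which no share of all genes is given.

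Of 12 genes in a list of metallothioneins with MTF1, 6 were tested. With HPPE 5 rose, all metallothioneins, beside 4.04% of all genes called in either direction. The log2 fold change of MTF1 itself was -0.27 (adjusted p = 0.263, edgeR's quasi-likelihood test). MT2A held 2.25, 2.11 and 6.38 CPM in DMSO and 14.0, 17.1 and 26.0 CPM with HPPE, a log2 fold change of 2.77 ± 0.36 (adjusted p = 1.56e-04). MT1X held 0.794, 1.72 and 2.55 CPM in DMSO and 7.38, 9.90 and 10.8 CPM with HPPE, a log2 fold change of 2.7 ± 0.47 (adjusted p = 0.00244). MT1E, MT1F and MT1G had at most 5 counts in each DMSO library, 3 or fewer in at least 1 of them, and 9 to 69 counts in the HPPE libraries. MT1E and MT1G passed the filter on low counts only through the HPPE libraries. Their being tested and their rise with HPPE are therefore not independent, and their calls add no separate weight. Over the alternatives 4 to 6 genes of the list were called. No median is given because of these low counts. Metallothionein genes are close copies of each other, so reads may have been split among them or dropped. With ZnPP and with SnPP, 0 of these 6 genes and 0 of the 8 exporters were called against DMSO, beside 2.25% and 2.28% of all genes. At an unadjusted p under 0.05, 1 exporter passed with ZnPP and 2 with SnPP. Of all 16366 genes tested, 3051 and 2410 passed at that threshold.

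**Figure D5:**
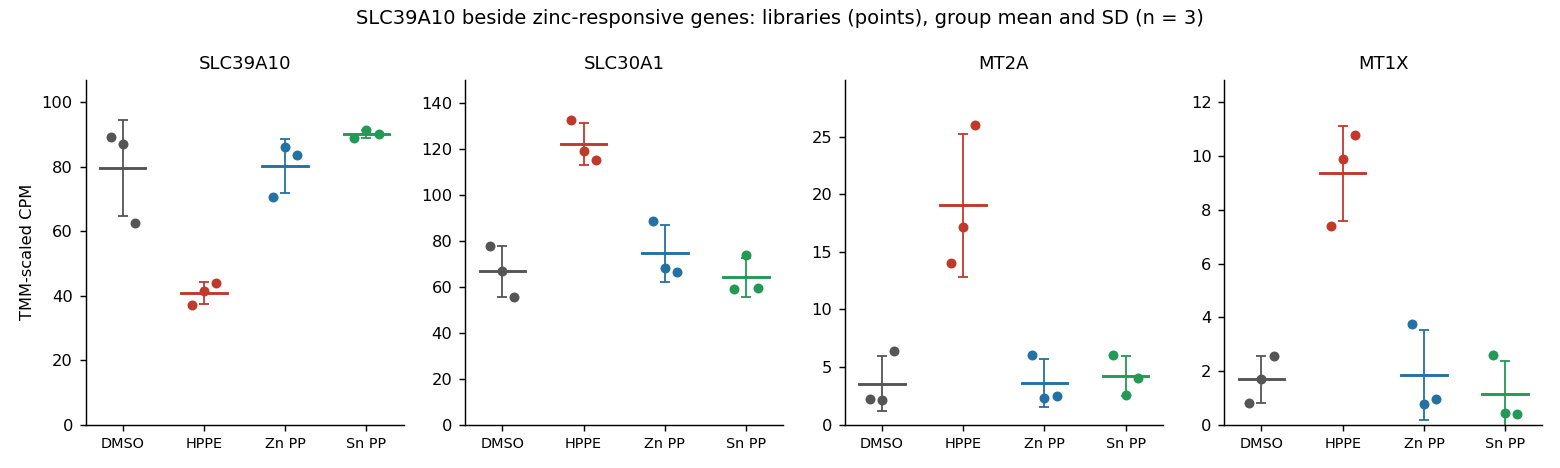
TMM-scaled CPM of SLC39A10, the exporter SLC30A1 and the metallothioneins MT2A and MT1X in each library (points), with group means (bars) and SD (whiskers, n = 3). HPPE libraries are the lowest for SLC39A10 and the highest for the other 3 genes.

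Promoter sequence is shown for SLC39A10 beside SLC30A1 and MT2A because MTF1 binds metal response elements, whose core was searched as TGCACNC or TGCGCNC on both strands. The windows, from RefSeq (GRCh38.p14), run from 250 bases before to 50 bases after each annotated start. Capitals mark the core; where they read GAGTGCA, it lies on the other strand.
SLC39A10, second start, chr2:195657249-195657275 plus strand: ggagaggagaTGCACACggcactcgag
SLC30A1, chr1:211579194-211579220 minus strand: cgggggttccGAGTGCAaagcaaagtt
SLC30A1, chr1:211579121-211579147 minus strand: agaccgggccGAGTGCAgctgccgtgg
MT2A, chr16:56608520-56608546 plus strand: gcggggctttTGCACTCgtcccggctc
MT2A, chr16:56608566-56608592 plus strand: cttgccgcgcTGCACTCcaccacgcct
SLC39A10 has 1 core in its 2 windows, 34 bases after the second start, and none in the window of the first. SLC30A1 has 2 cores and MT2A has 8. A core of either form is found in 29.6% of 35116 windows of this length. It is found in at least 1 window of 6 of the 9 members matched (SLC39A1, SLC39A3, SLC39A6, SLC39A8, SLC39A10 and SLC39A13). Having a core of either form therefore does not set SLC39A10 apart from other members, but the forms differ. In SLC39A10 it is TGCACNC, the form of the sites shown, found in 12.1% of windows. In the other members with a core it is TGCGCNC, found in 20% of windows. Members have 1 to 3 windows each, so a count of members and a share of windows are unlike measures. A match describes letters and is not a bound site.

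Other lists tied to single members moved with HPPE as follows, beside 4.04% of all genes called in either direction against DMSO. Of 5 iron and manganese genes beside SLC39A8 and SLC39A14, 3 rose, all of iron uptake or storage: FTH1 (log2 fold change 0.99 ± 0.13, adjusted p = 1.53e-04), FTL (0.65 ± 0.14, adjusted p = 0.0104) and the transferrin receptor gene TFRC (0.31 ± 0.08, adjusted p = 0.0254), all in edgeR's quasi-likelihood test. Over the alternatives 1 to 3 of them were called, and the median of the 5 was 0.31. Of 5 genes of the endoplasmic reticulum stress response, 2 rose, the chaperone gene HSPA5 (0.69 ± 0.10, adjusted p = 3.48e-04) and XBP1 (0.56 ± 0.14, adjusted p = 0.0370), with 1 or 2 called over the alternatives and a median of 0.56. Of 3 subunit genes of protein kinase CK2, which acts on ZIP7, 0 were called against DMSO and 1 passed at an unadjusted p under 0.05, with a median of 0.06. Between HPPE and ZnPP, where 12.7% of all genes were called, CSNK2A2 was lower with HPPE (-0.63 ± 0.15, adjusted p = 0.0166). CSNK2B was higher there (0.83 ± 0.20, adjusted p = 0.0183, both in edgeR's quasi-likelihood test). With ZnPP and SnPP, 0 genes of these 3 lists were called against DMSO, beside 2.25% and 2.28% of all genes. At an unadjusted p under 0.05, 1 gene passed with each compound. Of all 16366 genes tested, 2895 passed at that threshold with HPPE, 3051 with ZnPP and 2410 with SnPP.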

How the data were processed

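The authors deposited whole-number read counts per gene for 12 libraries. Reads were processed with fastp 0.21.1, STAR 2.7.7a and featureCounts on GRCh38, per the submitters' processing notes; the annotation and the strand setting are not given in the sources used here. Genes were filtered with filterByExpr (edgeR 4.0.16, R 4.3.3), which left 16366 genes holding 99.6% of counts. A model of 4 group means was fitted to all 12 libraries (TMM scaling, robust quasi-likelihood fit); 6 comparisons and a test over the 4 groups were two-sided, adjusted by Benjamini-Hochberg over all genes tested and called at 0.05. SE comes from the F statistic. CPM was computed from the counts with TMM-scaled library sizes. Depth ran from 1337028 to 9145399 counts, and sparse genes such as SLC39A1 have wide intervals. On simulated counts (15857 genes, HPPE against DMSO), 80% of 2-fold and 49.5% of 1.5-fold changes were recovered, with 5 false calls. Each gene was drawn independently there, without the axis of deviation shared by genes in the real libraries. The simulation checks the code and does not give the recovery in these data. All 10 members are named; of other lists, called genes, at most 4 by adjusted p. Members and lists were chosen with earlier results of these data known. Positions and lengths are from GENCODE 29, whose gene versions differ in part from the table's. DESeq2 1.42.0, other filters and scalings, a replicate block, a library covariate, summed HPPE replicates and leaving out each library were tried.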

Additional observations from a re-analysis of the deposited data

Results flagged for a closer look

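Differences between compounds were tested directly, and 3 among the members passed an adjusted p of 0.05 (edgeR quasi-likelihood test). SLC39A10 was lower with HPPE than with ZnPP by a log2 fold change of -1.02 and lower than with SnPP by -1.15. SLC39A13 was higher with HPPE than with ZnPP by 0.67, a difference that was lost in 6 of 22 alternatives and that came between groups whose libraries differ in their length trend.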

How the results depend on the processing

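The call of SLC39A10 in its 3 comparisons with HPPE held under all 22 alternatives run for each (against DMSO, log2 fold changes from -1.12 to -0.95 and adjusted p of at most 6.45e-04). The counts of called members were less stable. DESeq2 gave 2 for HPPE against DMSO (SLC39A9 and SLC39A10). Without the filter beyond 1 count in total, 1 was called for ZnPP against DMSO (SLC39A7) and 1 for ZnPP against SnPP (SLC39A13). With HPPE replicates 2 and 3 summed as 1 library, HPPE against ZnPP gave 1 in place of 2. The test over the 4 groups gave 1 in place of 2 in that setting, with a filter of 1 CPM in 3 libraries, with unscaled library sizes and with non-robust estimation. Leaving out each library gave 1 to 1 called for HPPE against DMSO, 0 to 0 for ZnPP against DMSO, 0 to 1 for SnPP against DMSO, 1 to 3 for HPPE against ZnPP, 1 to 1 for HPPE against SnPP, 0 to 1 for ZnPP against SnPP and 1 to 4 over the 4 groups. The cause of these shifts was not tested. No share of all genes called is given for these settings, so the counts do not describe the family.

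With the main axis of deviation between libraries of a group as a covariate, the counts were 2 (HPPE), 3 (ZnPP) and 3 (SnPP) against DMSO, 4 for HPPE against ZnPP, 2 for HPPE against SnPP, 2 for ZnPP against SnPP and 5 over the 4 groups. That axis was taken from the same libraries, which shrinks the spread by construction. No share of all genes called is given for this fit, so these counts do not describe the family. The calls gained against DMSO were SLC39A9 with HPPE (-0.23), ZnPP (-0.19) and SnPP (-0.25), SLC39A7 with ZnPP (-0.42) and SnPP (-0.19), and SLC39A13, lower with ZnPP (-0.41) and higher with SnPP (0.28). Between compounds they were SLC39A6 and SLC39A7 for HPPE against ZnPP (0.14 and 0.34), SLC39A6 for HPPE against SnPP (0.17), and SLC39A7 and SLC39A13 for ZnPP against SnPP (-0.23 and -0.69).

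Same-numbered libraries did not consistently deviate together (correlations of -0.68 to 0.52, and 3 of 12 libraries correlated best with their own number). With 3 libraries a group, this check cannot tell whether the numbers pair libraries, and the labels do not say. With the replicate block, SLC39A10 with HPPE was at -1.01, 1 member was called for HPPE against ZnPP and 1 over the 4 groups.

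Among small, uncalled changes, some changed sign. With unscaled library sizes the log2 fold change was 0.0071 for SLC39A11 (HPPE against DMSO), 0.010 for SLC39A9 (HPPE against ZnPP), -0.0045 for SLC39A6 (ZnPP against SnPP), -0.0064 for SLC39A9 (ZnPP against SnPP). Without the filter the log2 fold change was -0.022 for SLC39A8 (ZnPP against DMSO), 0.0043 for SLC39A9 (HPPE against ZnPP). With the replicate block the log2 fold change was -0.00034 for SLC39A11 (SnPP against DMSO). With the covariate the log2 fold change was -0.0036 for SLC39A3 (HPPE against DMSO), -0.0026 for SLC39A11 (SnPP against DMSO). Leaving out single libraries moved these changes across 0 in the ranges that follow. They were -0.031 to 0.11 for SLC39A3, -0.091 to 0.047 for SLC39A7, -0.10 to 0.13 for SLC39A11 (HPPE against DMSO). They were -0.16 to 0.030 for SLC39A3, -0.077 to 0.014 for SLC39A6, -0.036 to 0.093 for SLC39A8, -0.10 to 0.065 for SLC39A10, -0.18 to 0.0037 for SLC39A11, -0.0060 to 0.094 for SLC39A14 (ZnPP against DMSO). They were -0.0094 to 0.20 for SLC39A3, -0.17 to 0.038 for SLC39A8, -0.063 to 0.12 for SLC39A11 (SnPP against DMSO). They were -0.011 to 0.40 for SLC39A1, -0.079 to 0.028 for SLC39A9 (HPPE against ZnPP). They were -0.16 to 0.052 for SLC39A3, -0.0016 to 0.18 for SLC39A7, -0.026 to 0.034 for SLC39A9, -0.12 to 0.11 for SLC39A11, -0.26 to 0.074 for SLC39A13 (HPPE against SnPP). They were -0.034 to 0.17 for SLC39A8, -0.018 to 0.089 for SLC39A9 (ZnPP against SnPP). The depth of 1337028 to 9145399 counts limits SLC39A1 most.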

Other observations

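SLC39A4, which encodes ZIP4, the importer of the gut that is mutated in acrodermatitis enteropathica, is the 1 family gene outside the 10 members that was tested. It was higher with HPPE than with ZnPP (log2 fold change 0.63 ± 0.17, adjusted p = 0.0304 in edgeR's quasi-likelihood test). Against DMSO its log2 fold change with HPPE was 0.46 (adjusted p = 0.160), which was not called.

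Genes whose log2 CPM followed a member most closely over the 12 libraries were looked up among 10972 genes, as a description. For SLC39A10 they were CCDC88C (Pearson's r = 0.93), DNAAF5 (0.93) and RIMS3 (0.92); mean CPM of RIMS3 was 144.8 in DMSO, 105.3 with HPPE, 150.3 with ZnPP and 139.9 with SnPP. For SLC39A13 they were FBLN1 (0.95), CNOT3 (0.95) and PUF60 (0.94), and for SLC39A9 SUDS3 (0.93), OGA (0.92) and ARHGEF7 (0.91). The points of each correlation are the same 12 libraries, with their depths and length trends.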
